A study of Mus musculus with 12 samples.

Results

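The 10 genes studied here write, read or organise methylation of histone H3 at lysine 9 (H3K9), and their transcripts were measured in undifferentiated spermatogonia of control and surgically cryptorchid mouse testes. They were the methyltransferase genes Ehmt1, Ehmt2, Suv39h1, Suv39h2, Setdb1 and Setdb2, the corepressor gene Trim28, and the heterochromatin protein 1 (HP1) genes Cbx1, Cbx3 and Cbx5. They were chosen by gene symbol, and all 10 were found once among the 21859 genes of the expression table. RNA-seq was available for 5 control and 7 cryptorchid libraries. Both groups came from adult mice carrying a GFRa1-EGFP reporter, and GFRa1+/KIT- cells were sorted from them 10 days after surgery. In the cryptorchid group the left testis had been fixed to the abdominal wall, and the control was the right testis left in the scrotum. The labels give the control libraries the genotype WT and the cryptorchid libraries the genotype Cryptorchid, although the conditions differ by surgery. Each library was made by Smart-seq2, a full-length cDNA method for small inputs, from the RNA of about 200 cells. Cryptorchid testes were digested at a higher temperature than control testes, so that step cannot be told apart from the condition. The reporter marks cells by GFRa1 expression, and the sort therefore sets which cells could be measured. The sources used here do not say which of the libraries came from 1 animal, and P-values measure the spread between these libraries, which may be partly technical.

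H3K9 methylation is a repressive mark. EHMT1 (GLP) and EHMT2 (G9a) form a heterodimer that places mono- and dimethylation in euchromatin, whereas SUV39H1 and SUV39H2 trimethylate H3K9 at pericentromeric repeats and SETDB1 does so at retrotransposons, to which TRIM28 (KAP1) brings it through KRAB zinc finger proteins. The HP1 proteins bind the methylated lysine through their chromodomains, and loss of some of these enzymes is known to disturb spermatogonia or meiosis in mice. Levels are given as log2 RPM, the logarithm of a gene's reads scaled to a common library total, and a difference of 1 on this scale is a 2-fold change.

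The libraries held between 3306771 and 24345368 reads on genes, and each member had at least 138 reads in every library. Replicates 1 to 3 of both conditions and replicates 4 and above formed 2 sets, since the sum of reads was 6800360 or more in the first set and at most 5481947 in the second, although the labels name no batch. Both replicate 3 libraries often deviated in the same direction. For 31.1% of the 16932 genes that passed the filter on low values, these 2 libraries were together the highest or together the lowest of their groups, against 14.4%, 19.3%, 3.09% and 5.16% for the pairs numbered 1, 2, 4 and 5. Results for the members are therefore also given within each set and without replicate 3. In mean correlation with the other libraries, control and cryptorchid replicate 3 were not extreme (r = 0.85 for each). The lowest was cryptorchid replicate 2 (r = 0.77). The undifferentiated markers were present in every library, with Gfra1 at 7.88 ± 0.88 log2 RPM in the 5 control and 8.40 ± 0.70 in the 7 cryptorchid libraries (mean ± SD), and Ret at 8.37 ± 0.18 and 8.61 ± 0.34. The summed level of 12 undifferentiated markers was 1151 to 1769 RPM (median 1633) in control and 1343 to 2151 RPM (median 1515) in cryptorchid libraries. Of these 12 markers 7 had a higher and 5 a lower mean in cryptorchid libraries. The 1 with an unadjusted limma P below 0.05 was lower. Kit RNA was detected at 4.49 ± 0.63 and 4.94 ± 0.57 log2 RPM despite the sort against the KIT protein, and 7 markers of differentiating spermatogonia summed to 240 to 800 and 300 to 840 RPM. All 7 spermatid markers had a lower mean in cryptorchid libraries, 3 of them with an unadjusted P below 0.05, and their sum ran from 490 to 2666 RPM in control and from 14.5 to 1789 RPM in cryptorchid libraries, with Tnp2 at 0 reads in some of them. The 10 spermatocyte markers summed to 455 to 549 RPM in control and 566 to 852 RPM in cryptorchid libraries. Of these 10 markers 7 had a higher and 3 a lower mean in cryptorchid libraries. The 2 with an unadjusted limma P below 0.05 were higher. Of 6 endothelial markers 5 had a higher mean in cryptorchid libraries, 3 of them with a 2-fold difference and an unadjusted P below 0.05, and their sum was 25.7 to 47.4 RPM in control and 36.9 to 68.3 RPM in cryptorchid libraries. Markers of Sertoli cells reached at most 237 RPM in sum, those of Leydig cells 47.8 RPM, and those of macrophages, lymphocytes and peritubular myoid cells 30.5, 18.6 and 16.5 RPM. In sorted cells measured in bulk, fewer cells of a type and less RNA per cell cannot be told apart.

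None of the 10 genes met the 2-fold and unadjusted P < 0.05 criterion, a criterion that 5.92% of the genes tested with limma met. In cryptorchid spermatogonia 4 members had a higher and 6 a lower mean, and the log2 differences ran from -0.37 for Setdb2 to 0.58 for Cbx3. Their median was -0.04, beside 0.10 over all genes tested. Of the 10 members 1, Cbx3, had an unadjusted P below 0.05, and it was higher, beside 9.48% of all genes in either direction, 5.67% higher and 3.82% lower. With limma 0 members passed at an adjusted P of 0.05, as 0.0118% of all genes did. On reads recovered from the table, limma-voom gave the same counts of 1 and 0. No member separated the 2 groups without overlap, which 0.839% of the genes did. For 4 of the 10 genes the 95% interval of the difference lay within 2-fold in both directions, so a 2-fold change was outside the interval for those 4 and inside it for the other 6.

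**Figure D1:**
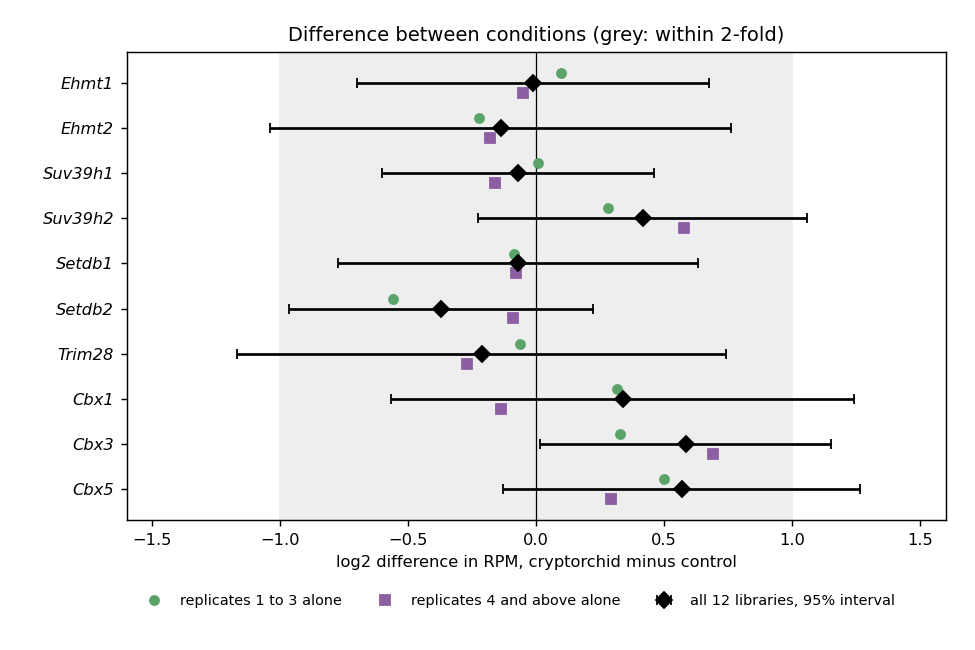
Log2 difference in RPM between cryptorchid and control libraries (horizontal axis) for the 10 genes, with diamonds and bars for the limma estimate and its 95% interval over 12 libraries, circles for replicates 1 to 3 alone and squares for replicates 4 and above alone. Every interval except that of Cbx3 includes 0, and the values of the 2 sets lie on opposite sides of 0 for Ehmt1, Suv39h1 and Cbx1.

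EHMT1 and EHMT2 act as one complex and their genes had nearly equal means in the 2 conditions. Ehmt1 (chromosome 2, 24789928 to 24919614, minus strand, GRCm38) was at 7.09, 7.37, 8.61, 7.50 and 7.60 log2 RPM in control replicates 1 to 5 and at 7.10, 7.43 and 8.84 (lowest, median and highest) in cryptorchid libraries. The highest library in either group was replicate 3, and the groups overlapped over nearly their whole range. The limma difference was -0.01 ± 0.33 (SE), with a 95% interval from -0.70 to 0.68. Ehmt2 (chromosome 17, 34898469 to 34914052, plus strand) was at 7.41, 8.28, 5.56, 7.54 and 7.33 log2 RPM in control and at 5.48, 7.26 and 7.72 in cryptorchid libraries. Here replicate 3 was the lowest of both groups. The difference was -0.14 ± 0.43 (SE; interval -1.04 to 0.76), and without both replicate 3 libraries it was -0.29, and the interval still did not exclude 0.

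The 2 genes of this complex deviated in opposite directions in replicate 3. Per kilobase of the longest transcript, the log2 ratio of Ehmt2 to Ehmt1 was 0.88, 1.47, 0.60 and 0.29 in control replicates 1, 2, 4 and 5 but -2.48 in control replicate 3. In cryptorchid libraries it was between -0.23 and 1.13 apart from replicate 3, where it was -2.80. The means of the ratio, 0.15 ± 1.53 (SD, n = 5) and 0.03 ± 1.35 (SD, n = 7), differed by far less than the spread, which came largely from replicate 3. The cryptorchid ratio was above the control ratio in 0 of the 5 same-numbered pairs. Equal numbers are not known to share an animal, and this ordering was not tested.

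Among the pericentromeric enzymes, Suv39h1 was the steadiest gene of the control group and Suv39h2 had the larger difference between conditions, which did not pass the test. Suv39h1 (chromosome X, 8061171 to 8074760, minus strand) was at 6.72, 6.60, 6.47, 6.84 and 6.57 log2 RPM in control libraries. In cryptorchid libraries the lowest, median and highest were 5.80, 6.66 and 7.18, so that both ends lay outside the control range around a similar mean, with a difference of -0.07 ± 0.25 (SE; interval -0.60 to 0.46). The SD was 0.14 in control (n = 5) and 0.46 in cryptorchid libraries (n = 7). Its exons share 551 bases with the antisense gene Gm14820, and since the strand used in counting is not given in the sources used here, reads of the 2 cannot be told apart.

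Suv39h2 (chromosome 2, 3455815 to 3475031, minus strand), whose protein is known to be prominent in the testis, was at 6.62, 6.31, 4.90, 5.38 and 6.11 log2 RPM in control libraries and at 5.84, 6.32 and 6.86 in cryptorchid libraries. The lowest 2 values were control replicates 3 and 4, and the rest of the groups overlapped. The difference was 0.42 ± 0.31 (SE; interval -0.23 to 1.06), 0.28 in replicates 1 to 3 and 0.58 in replicates 4 and above, and 0.25 without replicate 3. It ran from 0.17 (without control replicate 3) to 0.60 (without control replicate 1) with each library left out. Of the alternatives tried, the fit to replicates 4 and above alone was the only one with an unadjusted limma P below 0.05, at 0.0489. A stretch of 357 exonic bases is shared with Dclre1c on the opposite strand. Per kilobase of the longest transcript, the log2 ratio of Suv39h2 to Suv39h1 was below 0 in all 12 libraries, with a mean ± SD of -1.25 ± 0.68 in control (n = 5) and -0.76 ± 0.45 in cryptorchid cells (n = 7). This ratio depends on the length used. Per kilobase of all exons, Suv39h1 and Suv39h2 had means of 4.33 and 3.75 log2 RPM in control and 4.26 and 4.17 in cryptorchid cells.

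Setdb1 and Trim28, the partners of the retrotransposon pathway, were the most abundant members per kilobase, and neither differed between conditions beyond its error. Setdb1 (chromosome 3, 95323525 to 95357202, minus strand) was at 8.08, 7.45, 8.95, 8.34 and 8.12 log2 RPM in control and at 6.99, 8.06 and 9.16 in cryptorchid libraries. The highest value of both groups was replicate 3 and the lowest was replicate 2. Its difference was -0.07 ± 0.33 (SE; interval -0.77 to 0.63). Parts of its exons overlap Cers2 and Gm37500 on the opposite strand, over 75 and 249 bases.

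Trim28 (chromosome 7, 12999114 to 13031035, plus strand) showed the widest spread within a condition together with Ehmt2 and Cbx1. Control libraries held 8.43, 8.65, 6.21, 7.43 and 7.74 log2 RPM, and the lowest, median and highest cryptorchid libraries 5.97, 7.44 and 8.62. Replicates 1 and 2 were high and replicate 3 was low in both conditions. The difference was -0.21 ± 0.45 (SE), with the widest interval of all members, -1.17 to 0.74. Setdb2 (chromosome 14, 59402009 to 59440884, minus strand), a less studied relative of Setdb1, was at 6.29, 5.71, 5.68, 5.38 and 5.47 log2 RPM in control libraries and at 4.60, 5.50 and 5.90 in cryptorchid libraries. The values of 3 of the 7 cryptorchid libraries lay below the lowest control library. Its difference of -0.37 ± 0.28 (SE; interval -0.97 to 0.22) was the lowest of the 10, with -0.56 in replicates 1 to 3 and -0.09 in replicates 4 and above.

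**Figure D2:**
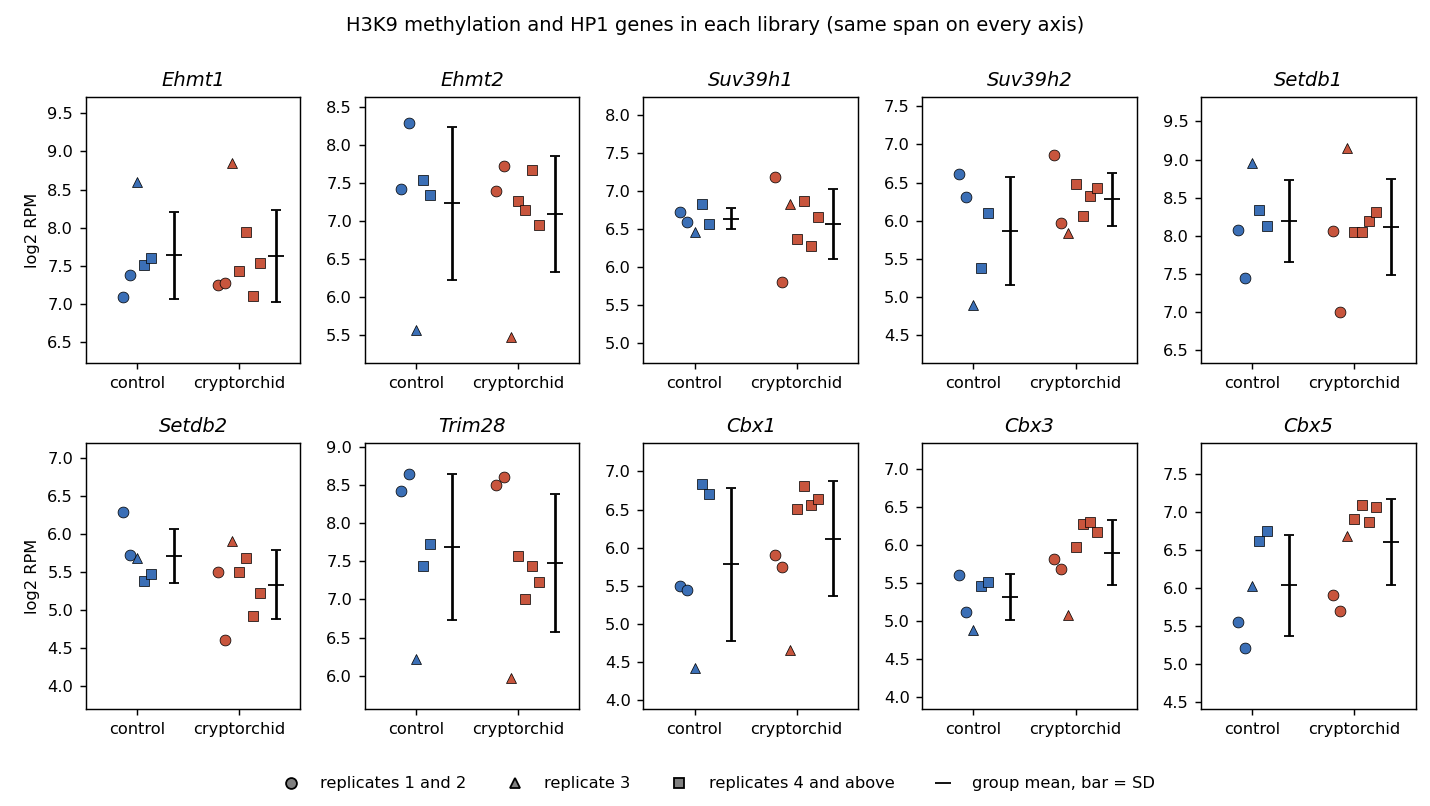
Log2 RPM (vertical axes, each spanning the same range) of the 10 genes in 5 control and 7 cryptorchid libraries, with circles for replicates 1 and 2, triangles for replicate 3, squares for replicates 4 and above, and bars for the group mean and SD. The triangles are at the bottom of both groups for Ehmt2, Trim28, Cbx1 and Cbx3 and at the top for Ehmt1 and Setdb1, and the squares of Cbx1 and Cbx5 lie above the circles in both groups.

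All 3 HP1 genes had a higher mean in cryptorchid cells, and with Suv39h2 they made up the 4 members that did, although none reached 2-fold. Cbx3 encodes HP1γ, found in euchromatin as well as heterochromatin. Cbx5 encodes HP1α and Cbx1 encodes HP1β, both concentrated at pericentromeric heterochromatin. The promoters of Cbx3 and Cbx5, the pair with the highest differences, are shown, and both genes have an hnRNP gene starting upstream on the other strand. These hnRNP starts, 722 bases from Cbx3 and 545 bases from Cbx5, lie outside the windows shown. The windows are RefSeq sequences of GRCm38.p6 from 250 bases before to 50 bases after the start, Cbx3 from the plus strand of chr6:51470366-51470665 and Cbx5 from the minus strand of chr15:103239803-103240102. Capitals mark the GC box GGGCGG and the CCAAT box CCAAT on either strand.
Cbx3: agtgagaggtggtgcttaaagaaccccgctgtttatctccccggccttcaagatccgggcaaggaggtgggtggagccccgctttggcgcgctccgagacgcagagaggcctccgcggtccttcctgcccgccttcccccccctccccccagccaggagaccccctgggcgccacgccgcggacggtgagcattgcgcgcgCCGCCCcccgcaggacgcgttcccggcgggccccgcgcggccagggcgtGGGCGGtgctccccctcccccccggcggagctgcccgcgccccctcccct
Cbx5: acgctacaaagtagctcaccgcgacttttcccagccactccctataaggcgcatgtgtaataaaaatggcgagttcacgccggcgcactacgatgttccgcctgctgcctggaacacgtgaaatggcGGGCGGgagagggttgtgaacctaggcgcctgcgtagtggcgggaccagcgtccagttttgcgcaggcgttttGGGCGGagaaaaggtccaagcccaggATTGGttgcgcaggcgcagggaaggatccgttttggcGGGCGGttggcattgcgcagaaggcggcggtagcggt
The Cbx3 window holds 2 GC boxes and no CCAAT box, and the Cbx5 window holds 3 GC boxes and 1 CCAAT box. A GC box was found in 12 of the 14 RefSeq promoters of the members, which belong to 9 of the 10 genes, and in 35.7% of all 32851 RefSeq promoters. A CCAAT box was in 4 of the 14 and in 37.4% of all. The ETS motif CCGGAAG was in 1 (Setdb1) and in 8.86% of all, the cAMP response element TGACGTCA in 1 (Suv39h2) and in 1.79%, and the heat shock element core GAANNTTC in 0 and in 7.86%, all searched on both strands. The Cbx3 and Cbx5 windows hold 34 and 29 CpG dinucleotides, against a median of 7 over all promoters. RefSeq gives each gene a second promoter downstream, not shown, with 32 CpG dinucleotides and no GC box for Cbx3 and with 8 CpG dinucleotides and 1 GC box for Cbx5.

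Cbx3 (chromosome 6, 51470360 to 51483704, plus strand) was at 5.60, 5.12, 4.88, 5.46 and 5.51 log2 RPM in control libraries, and the lowest, median and highest cryptorchid libraries were at 5.07, 5.97 and 6.30. In 6 of the 7 cryptorchid libraries it was above every control library, and replicate 3 was the exception. The difference was 0.58 ± 0.27 (SE; interval 0.01 to 1.15), or 1.50-fold, with an adjusted P of 0.517 over all genes. An exact two-sided rank sum test gave P = 0.0303. The difference was 0.33 in replicates 1 to 3, 0.69 in replicates 4 and above, 0.50 with a term for the set, and 0.61 without replicate 3. The unadjusted limma P ranged from 0.00922 to 0.102 when each library was left out in turn and no longer passed 0.05 without any 1 of 9 of the 12 libraries (all but control replicate 1 and cryptorchid replicates 2 and 3), and with the set term it was 0.0553. The sum of the 10 spermatocyte markers was also higher in every cryptorchid library than in any control library, although 3 of the 10 had a lower mean. The median sum of the 7 spermatid markers was 1110 RPM in control and 289 RPM in cryptorchid libraries, while that of the 6 endothelial markers was 40.2 and 40.3 RPM. The part of these cell types in the Cbx3 values was not tested. Transcripts of 12 other genes match Cbx3 at 95% identity or more over at least 150 bases, 10 of them pseudogenes, so its reads may be split among copies.

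Cbx5 (chromosome 15, 103191544 to 103239816, minus strand) was at 5.56, 5.22, 6.03, 6.62 and 6.75 log2 RPM in control and at 5.69, 6.86 and 7.10 in cryptorchid libraries. Cryptorchid replicates 4 and above lay over every control library, and cryptorchid replicates 1 to 3 within the control range. The difference was 0.57 ± 0.33 (SE; interval -0.13 to 1.27), 1.48-fold, with an adjusted P of 0.613. It was 0.50 in replicates 1 to 3 and 0.29 in replicates 4 and above, and the unadjusted limma P of 0.104 fell below 0.05 without control replicate 5 or without cryptorchid replicate 2, to 0.0362 at the lowest. With each library left out the difference ran from 0.36 (without control replicate 2, unadjusted limma P of 0.298) to 0.75. Cbx1 (chromosome 11, 96789127 to 96808640, plus strand) was at 5.50, 5.45, 4.42, 6.83 and 6.71 log2 RPM in control and at 4.66, 6.51 and 6.81 in cryptorchid libraries, so that the control range covered the whole cryptorchid range. Its difference of 0.34 ± 0.43 (SE; interval -0.57 to 1.24) became 0.10 with a term for the set and was -0.14 in replicates 4 and above.

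Cbx1 and Cbx5 differed more between the library sets than between the conditions. In control libraries Cbx1 had a mean of 5.12 log2 RPM in replicates 1 to 3 and 6.77 in replicates 4 and 5, and in cryptorchid libraries the means were 5.43 and 6.63. For Cbx5 the means were 5.60 and 6.69 in control and 6.10 and 6.98 in cryptorchid libraries. For both genes every library of replicates 4 and above exceeded every library of replicates 1 to 3 of the same condition, a separation seen in this direction for 5.71% of all genes. Cryptorchid libraries made up 4 of the 6 libraries of replicates 4 and above and 3 of the 6 libraries of replicates 1 to 3, so the set enters the difference between conditions unless a term for it is fitted.

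The hnRNP genes that start upstream of Cbx3 and Cbx5 had differences near 0 or below it. Hnrnpa2b1, which encodes an RNA-binding protein of pre-mRNA processing and starts 722 bases from Cbx3 on the other strand, was at 9.43 ± 0.14 (SD, n = 5) and 9.47 ± 0.11 (SD, n = 7) log2 RPM, a difference of 0.04 (limma interval -0.49 to 0.58). Hnrnpa1, of the same family and 545 bases from Cbx5, differed by -0.23 (interval -0.76 to 0.29). Whether a member and its neighbour differed from each other was not tested. Cab39l, 83 bases from Setdb2, differed by 0.43 (interval -0.10 to 0.97). A start of another gene on the opposite strand within 1000 bases upstream was found for 3 of the 10 members and for 8.51% of 16802 genes with a RefSeq start.

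By the deviation of each library from its group mean, the replicate 3 libraries carried the same pattern in both conditions. Against the median of the other libraries of its group, Ehmt2 in replicate 3 was lower by a log2 difference of -1.91 in control and -1.85 in cryptorchid cells, Trim28 by -1.87 and -1.54, and Cbx1 by -1.68 and -1.88. Ehmt1 was higher by 1.17 and 1.49 and Setdb1 by 0.85 and 1.10. For 7 of the 10 members, namely these 5 with Suv39h2 and Cbx3, replicate 3 was outermost on the same side of both groups, where the share over all genes was 31.1%. Replicate 2 was so for 4 members (Ehmt2, Setdb1, Trim28 and Cbx5), where the share over all genes was 19.3%. Cbx5 lay within the range of the other libraries in both groups. With both replicate 3 libraries left out, the log2 differences between conditions were 0.03 for Ehmt1, -0.16 for Suv39h1, -0.05 for Setdb1, -0.47 for Setdb2, -0.33 for Trim28, 0.24 for Cbx1 and 0.55 for Cbx5, so that of the 10 members Ehmt1 alone changed sign. The genes most like Cbx3 by Pearson's r over the 12 libraries, after the group means were removed, were Usp47 (r = 0.97), Ammecr1l (r = 0.96) and Golga2 (r = 0.95). This likeness is descriptive, since the libraries share their set, their depth and the replicate 3 pattern.

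**Figure D3:**
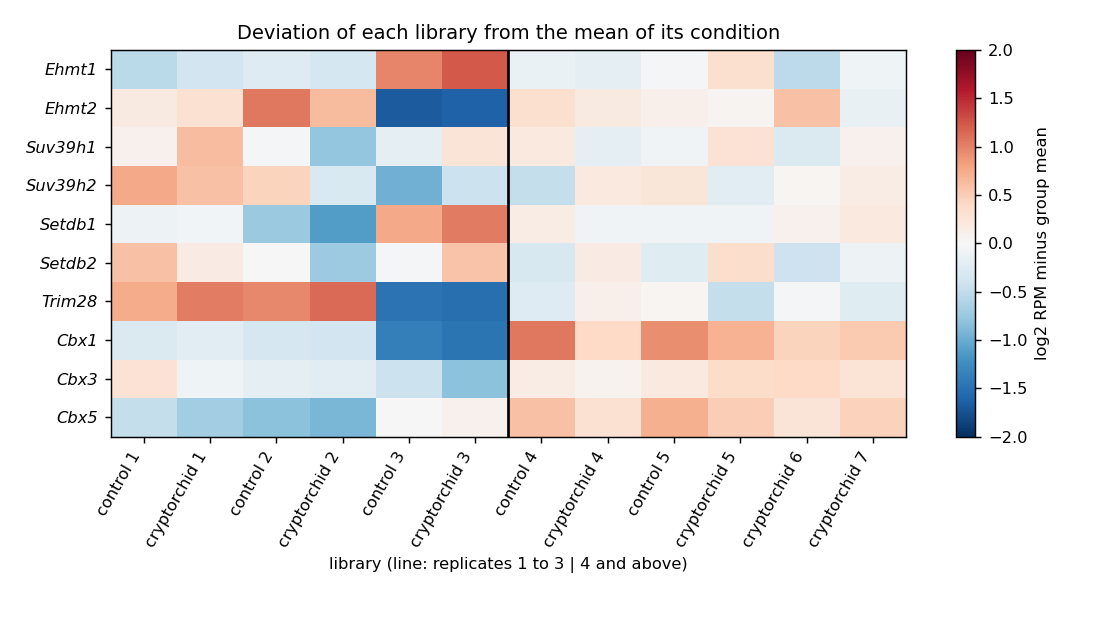
Colour gives the log2 RPM of each of the 10 genes (rows) minus the mean of its condition in each library (columns, ordered by replicate number, with a line between replicates 1 to 3 and 4 and above). Both replicate 3 columns are blue for Ehmt2, Trim28 and Cbx1 and red for Ehmt1 and Setdb1, and Cbx1 and Cbx5 are red in all columns right of the line.

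Levels of different genes were compared per kilobase of the longest annotated transcript. In control cells the order from high to low was Trim28 (5.99 log2 RPM per kilobase), Setdb1 (5.97), Ehmt2 (5.22), Ehmt1 (5.06), Suv39h1 (5.0), Cbx1 (4.91), Cbx3 (4.40), Setdb2 (4.10), Suv39h2 (3.75) and Cbx5 (2.90). No pair of neighbours in this order differed by more than 1 SD of the difference within libraries. In cryptorchid cells Setdb1 (5.90) and Trim28 (5.78) were again at the top and Setdb2 (3.73) and Cbx5 (3.46) at the bottom, with Cbx1 (5.25) next below Trim28. The one pair of neighbours there whose mean difference exceeded its SD was Suv39h1 (4.93) over Suv39h2 (4.17), in that order in 7 of 7 libraries. With the length of all exons these means were nearly equal, at 4.26 and 4.17, so this gap depends on the length used. The low value of Cbx5 depends on its long annotated transcript of 8803 bases, and with the length of all exons Suv39h1 moved from rank 5 to rank 7 in control cells. In cryptorchid cells Cbx1 then moved from rank 3 to rank 6, at 4.84, and Setdb2 (3.37) fell below Cbx5 (3.43).

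**Figure D4:**
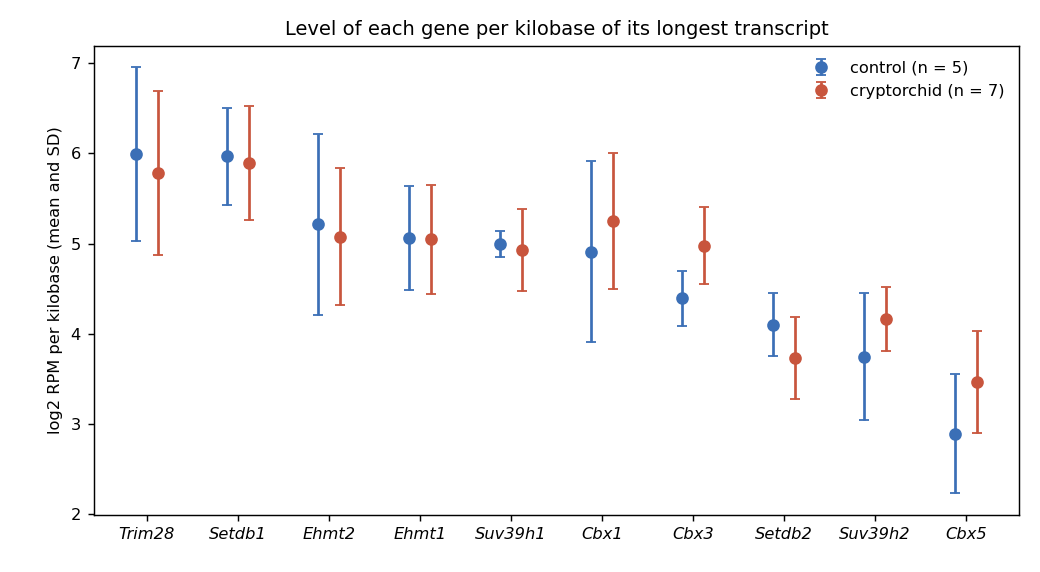
Mean level per kilobase of the longest transcript in log2 RPM (vertical axis) with the SD over 5 control (blue) and 7 cryptorchid (red) libraries, ordered by the control mean. The blue bars of neighbouring genes overlap from Trim28 to Cbx5, the red bars of Cbx3 and Setdb2 do not, and Cbx1, Cbx3, Suv39h2 and Cbx5 have higher red than blue points.

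The wider H3K9 machinery was represented by 43 genes, all of which passed the filter. In cryptorchid cells 2 were higher and 1 was lower at an unadjusted limma P below 0.05, that is 6.98% of the list beside 9.48% of all genes, and none passed after adjustment in the unweighted, unpaired limma fit. The median difference of the 43 was 0.20. Of 5 partners of EHMT1 and EHMT2 and 4 other methyltransferase genes of the PRDM family, none passed. Of 8 partners of SETDB1 and TRIM28, including the HUSH complex, 1 was higher. Of 11 demethylases 1 was higher, and of 15 HP1 partners and heterochromatin genes 1 was lower.

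Mphosph8, whose product MPP8 binds methylated H3K9 within the HUSH complex, was at 6.38, 7.09, 5.15, 6.87 and 6.79 log2 RPM in control libraries and at 5.98, 7.68 and 7.87 in cryptorchid libraries. In 6 of the 7 cryptorchid libraries it was above every control library, and replicate 3 was the exception again. The difference was 0.96 ± 0.37 (SE; interval 0.18 to 1.75), or 1.95-fold, with an adjusted P of 0.429. It was 0.79 in replicates 1 to 3 (unadjusted limma P of 0.219) and 0.91 in replicates 4 and above (0.00024). Without control replicate 3 it was 0.64, where the unadjusted limma P no longer passed 0.05. With both replicate 3 libraries left out it was 0.88 (unadjusted limma P of 0.00085). For Mphosph8 an exact rank sum test gave P = 0.0303.

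Kdm4d, a testis-enriched demethylase of di- and trimethylated H3K9, was a low-level gene with 11 to 131 reads per library. It was at 1.87, -0.60, 1.65, 2.18 and 2.28 log2 RPM in control and at 1.27, 2.63 and 3.93 in cryptorchid libraries. Control replicate 2 was far below the rest, and 6 of 7 cryptorchid libraries were above every control library. The difference was 1.37 ± 0.65 (SE; interval 0.01 to 2.73) with an adjusted P of 0.523, and 0.86 without control replicate 2. It was 1.86 in replicates 1 to 3 and 0.64 in replicates 4 and above. The unadjusted P was above 0.05 with median centring (0.0542), quantile normalization (0.0652), array weights (0.057), the set term (0.0618) and both other filters, in each set alone, and in 8 of the 12 fits that left out 1 library. Leaving out any 1 of 8 of the 12 libraries, all but control replicates 4 and 5 and cryptorchid replicates 1 and 6, took its unadjusted P above 0.05. Kdm3b, another H3K9 demethylase, had 5 of 7 cryptorchid libraries above every control library and a difference of 0.70 ± 0.33 (SE; interval -0.0010 to 1.39), 0.32 in replicates 1 to 3 and 0.83 in replicates 4 and above. Its unadjusted limma P of 0.0503 passed 0.05 in 13 of 25 alternatives, among them median centring (0.0337), quantile normalization (0.0307), voom (0.0413), array weights (0.0045), replicates 4 and above alone (0.0044), and the fits without control replicate 1 or 5 or cryptorchid replicate 2 or 3. For Kdm3b an exact rank sum test gave P = 0.106.

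Chaf1a, the large subunit of the CAF-1 histone chaperone, which binds HP1, was the gene with the smallest unadjusted P of the list. It was at 7.97, 7.84, 7.33, 7.97 and 7.93 log2 RPM in control and at 6.66, 7.10 and 7.70 in cryptorchid libraries. All 7 cryptorchid libraries were below the control median and 5 were below every control library. The difference was -0.68 ± 0.24 (SE; interval -1.19 to -0.18), with an adjusted P of 0.380, and an exact rank sum test gave P = 0.0101. With array weights the genes with an adjusted P under 0.05 went from 2 to 476 of 16932. There the Chaf1a difference was -0.83 and its adjusted P 0.0293, which passes 0.05. It was -0.42 in replicates 1 to 3 and -0.95 in replicates 4 and above, and it stayed below 0.05 in the unadjusted test whichever library was left out. Chaf1b, which encodes another CAF-1 subunit, differed by 0.28 (interval -0.43 to 0.995). Sirt6, a histone deacetylase gene, and Daxx, a histone H3.3 chaperone gene, came next among the lower genes, at -1.13 (interval -2.39 to 0.13) and -0.58 (interval -1.36 to 0.21), and did not pass. Sirt6, with 12 reads in its lowest library, did so without cryptorchid replicate 2 or without cryptorchid replicate 5. It also did so with array weights (unadjusted limma P of 0.0377) and with voom (0.0402). Daxx did so with array weights (0.0115) and in replicates 4 and above alone (0.0338).

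**Figure D5:**
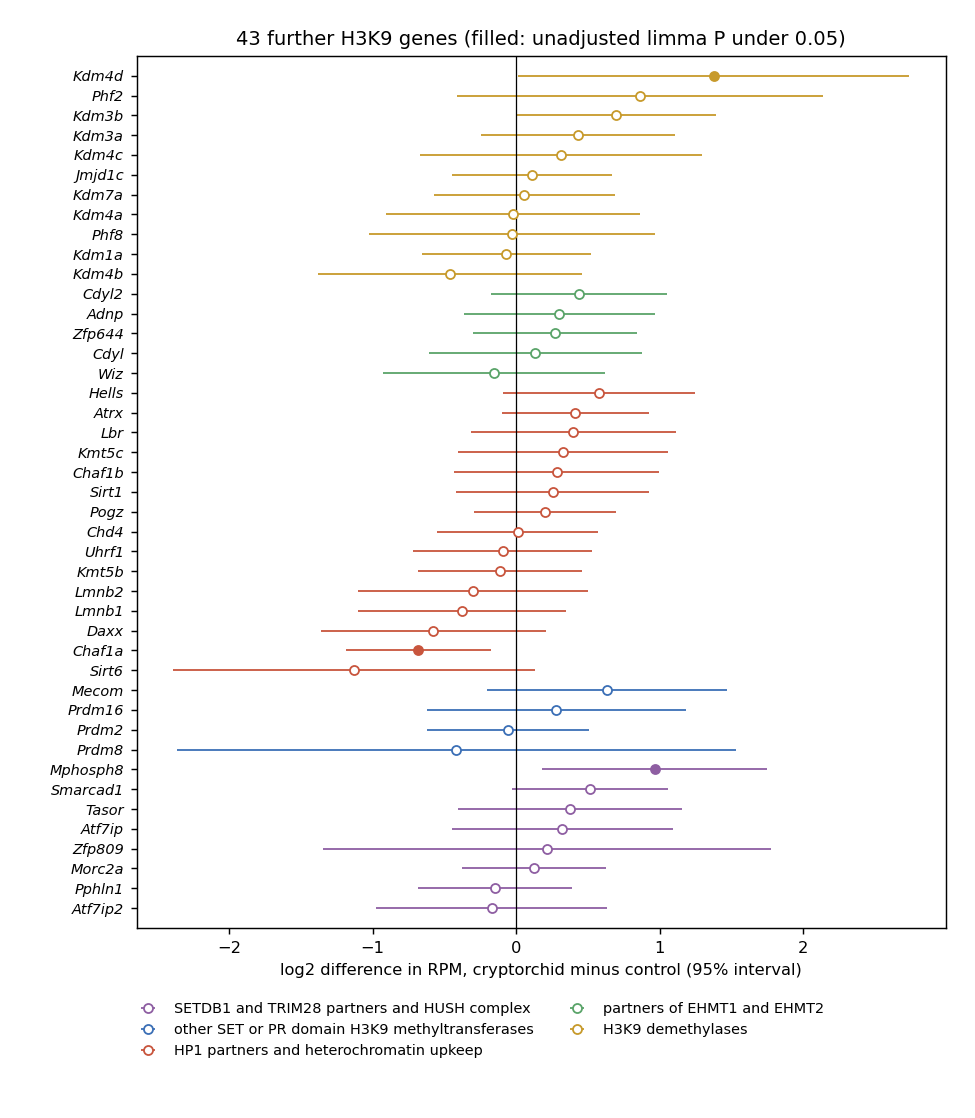
Log2 difference in RPM between cryptorchid and control libraries (horizontal axis) with its 95% limma interval for 43 further genes of the H3K9 pathway, coloured by group, with filled points for an unadjusted P under 0.05. The filled points are Kdm4d and Mphosph8 to the right of 0 and Chaf1a to the left, and the intervals of the other 40 genes include 0.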

How the data were processed

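Per the study's methods, reads were adapter-trimmed by the authors, aligned with HISAT2 2.1.0 (mm10) and counted over protein-coding genes in SeqMonk. The deposited values are log2 RPM, scaled to a library total larger than the reads on genes, and 0 columns belonged to no sample. Steps between low values gave whole reads (tolerance 0.01) for 100% of values of up to 1000 reads in every library, with a gene without reads set at the level of 0.9 reads. Genes with a log2 mean RPM above -1 (16932 of 21859) were fitted with limma 3.58.1 in R 4.3.3 (trend, two-sided, Benjamini-Hochberg over all genes tested). A change was called at 2-fold and an unadjusted P under 0.05. The fit was also run on simulated independent reads with planted changes larger than 2-fold. The simulation had no library sets and no replicate 3 pattern, so it does not cover smaller differences in libraries like these. Exact rank sum tests and gene lengths used Python 3.11.15, with GENCODE positions on GRCm38 and RefSeq promoters matched by symbol for 10 of 10 members. Near-identical transcripts were sought with BLAST+ 2.17.0 at 95% identity over 150 bases or more.

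The members, the 43 pathway genes and the 75 markers in 10 lists were chosen with earlier results of these data known. The genes named were the 10 members, the pathway genes under an unadjusted P of 0.05, or the 3 smallest P in a direction where fewer passed, and the 3 genes most like the member with the smallest P. Replicate numbers did not establish pairs of libraries, so the fit was unpaired. Alternatives covered median centring, quantile normalization, pseudocounts of 1 and 0.1 RPM, filters, array weights, voom on the recovered reads, a replicate block, a term for the library set, each set alone and each library left out. Leaving out both replicate 3 libraries was chosen after seeing the data. Chaf1b, Hnrnpa2b1, Hnrnpa1 and Cab39l are outside the naming rule and were added for comparison.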

Additional observations from a re-analysis of the deposited data

Results flagged for a closer look

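In 4 of the 32 groups examined (10 members and 6 pathway genes, in 2 conditions each) 1 library lay far from the others by Dixon's 95% criterion. Its nominal rate is about 1 in 20 groups, but that holds for independent groups. These groups share the same 12 libraries, and the pathway genes were chosen by their P. The replicate 3 libraries were outermost in both conditions for 31.1% of all genes. The share of such flags over all genes was not determined. Ehmt2 in cryptorchid replicate 3 was at 5.48 log2 RPM (374 reads), where the other 6 libraries lay between 6.94 and 7.72. Mphosph8 was low in the same library, at 5.98 log2 RPM against 7.15 to 7.87. Chaf1a was low in control replicate 3, at 7.33 log2 RPM against 7.84 to 7.97. Kdm4d was at -0.60 log2 RPM in control replicate 2 (19 reads), where the other control libraries lay between 1.65 and 2.28.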

How the results depend on the processing

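The counts of 0 members called at 2-fold and of 0 members under an adjusted P of 0.05 were the same under every alternative run. The number of members with an unadjusted P under 0.05, 1 in the limma fit, was 0 without the filter, with the set term and in replicates 1 to 3 alone, 2 in replicates 4 and above alone (Cbx3 and Suv39h2), and 0 to 2 with each library left out. The number of pathway genes, 3, became 13 with array weights, 5 with voom, 0 in replicates 1 to 3 alone, 11 in replicates 4 and above alone, and 2 to 5 with each library left out. Array weights took the share of all genes under that P to 20.03%, voom to 11.6%, replicates 1 to 3 alone to 3.74% and replicates 4 and above alone to 17.3%. This share was 8.57% without the filter, 11.4% with the set term, and 7.25% to 12.9% with each library left out. The median of the members ran from -0.06 to 0.09 with each library left out. Cbx3, Cbx5, Suv39h2 and Setdb2 kept the sign of their difference throughout. Ehmt1, near 0, was 0.0043 with array weights, 0.027 with the set term, 0.10 in replicates 1 to 3 alone, 0.027 without both replicate 3 libraries, and -0.22 to 0.23 with each library left out. Suv39h1 was 0.0079 in replicates 1 to 3 alone and Cbx1 -0.14 in replicates 4 and above alone. With each library left out the ranges were -0.55 to 0.13 for Ehmt2, -0.17 to 0.057 for Suv39h1, -0.26 to 0.12 for Setdb1, -0.58 to 0.038 for Trim28 and -0.0028 to 0.60 for Cbx1. The cause of these shifts was not tested. Same-numbered libraries deviated together with r = 0.35, 0.36, 0.41, 0.25 and 0.05 for numbers 1 to 5, and 4 of 5 control libraries correlated best with their own number. With the replicate block 2 members (Cbx3 and Cbx5) and 15 pathway genes, Daxx among them, had an unadjusted P under 0.05. So did 22.2% of all genes. In that fit the Ehmt1 difference was 0.11, and the adjusted P was 0.0054 for Mphosph8 and 0.0322 for Chaf1a. Over all 16932 genes, 949 had an adjusted P under 0.05 in it, against 2 in the main fit. Libraries differ in depth, and with 11 reads at the lowest Kdm4d is the least precise gene named.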

Other observations

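For 5 further genes of the H3K9 pathway the 95% limma interval of the log2 difference included 0. Among the demethylases Jmjd1c was at 8.07 log2 RPM in control cells and differed by 0.11 (limma interval -0.45 to 0.67), and Kdm1a, at 6.41, differed by -0.07 (interval -0.66 to 0.52). For Uhrf1, which reads H3K9 methylation during DNA methylation maintenance, the difference was -0.10 (interval -0.72 to 0.53). Hells, a chromatin remodeller of heterochromatin, had 0.58 (interval -0.09 to 1.25), and Smarcad1, a remodeller that binds TRIM28, 0.51 (interval -0.03 to 1.06). Their unadjusted limma P was 0.00092 and 0.0226 in replicates 4 and above alone, where 17.3% of all genes passed 0.05. In replicates 1 to 3 alone it was 0.634 and 0.461. For Smarcad1 an exact rank sum test gave P = 0.0480. These 5 genes were chosen after their values were seen.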
